A study of Homo sapiens with 36 samples.

Results

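The response to lipopolysaccharide (LPS) was described in the non-target control line, shNT, of THP-1 cells, a human monocytic line of leukaemic origin. The 6 libraries, of 36 in the series, were chosen by their labels: 3 replicates of shNT cells at 5% CO2 and 3 of shNT cells at 5% CO2 with LPS. Both groups carried a lentiviral non-target short hairpin RNA and were held in buffered DMEM with serum in a gas chamber at 5% CO2 for 4 h, and the LPS group received 2.5 µg/mL LPS for the last 2 h. Polyadenylated RNA was sequenced, and the values are counts per gene. The other libraries held shNT cells at 10% CO2 and lines with short hairpin RNAs against NR4A2 (shNR4A2) or NR4A3 (shNR4A3), and they enter only where the response was compared. The study describes its sequencing data as coming from individual experiments, so the p-values measure the spread between experiments, and the sources used here do not say whether libraries of 1 number were made together. Whether a line was a pool or 1 clone is not given in the sources used here.

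LPS is the glycolipid of the outer membrane of Gram-negative bacteria. It is carried by CD14 to the TLR4 and MD-2 receptor on monocytes, which signals through MyD88 and TIRAP to the IRAK kinases, NF-kB and the MAP kinases, and through TRIF (TICAM1) to TBK1 and IRF3. NF-kB is held in the cytoplasm by inhibitors such as IkB-alpha (NFKBIA), and released NF-kB drives cytokine and chemokine genes as well as the genes of its own inhibitors. The first genes to respond are short-lived transcription factors and cytokines, while many interferon-stimulated genes need newly made interferon and follow later.

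Totals in the 6 libraries were 17132910 to 21602737 counts (median 20306867), with 26241 to 30447 genes at 1 count or more. Of 12 monocytic markers, 10 stood at 1 or more CPM per kb in all 6 libraries. CPM per kb is the CPM of a gene (its count relative to the library total of the genes tested, scaled by TMM factors over all 36 libraries) divided by its exonic length in kilobases, and every level below is on this scale. The markers of T cells (5 of 5), NK cells (4 of 4), erythroid cells (2 of 2), epithelial cells (3 of 3) and fibroblasts (3 of 3) were under 1 in all 6 libraries, as were 2 of 3 of B cells. The third, CD79A, was not under 1 in every library, and the B cell markers summed to 1.03 to 1.53 without and 1.54 to 1.99 with LPS. The sum of the monocytic markers was 521 to 662 in the controls and 591 to 744 with LPS.

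At 2 h the response was large and lopsided in size. Of 17720 genes tested, edgeR's quasi-likelihood test called 4052 (22.9%) at a Benjamini-Hochberg adjusted p under 0.05, 1993 higher (11.2%) and 2059 lower (11.6%) with LPS. Of these, 831 were higher by 2-fold or more (4.69% of genes tested) and 504 were lower by 2-fold or more (2.84%). Steeper changes lay almost wholly on the induced side: 316 genes rose 8-fold or more and 10 fell as far, 113 rose 32-fold or more and 0 fell as far, and 30 rose 128-fold or more. These classes use edgeR's fold, which has no measured control level behind it for 39 genes called higher from 0 counts in every control. IL6 and CSF3 enter there as 239-fold and 296-fold. Against a floor of 3 counts over the 3 controls they were at least 26.97-fold and 33.5-fold higher, so the induced classes may be too large. All 3 LPS libraries lay above all 3 controls in 3251 genes (18.3%) and below them in 3438 (19.4%). Scaled by library size only, the calls split into 1218 higher and 4147 lower, and the median of all genes moved from -0.0013 to -0.18 on the log2 scale. The 831 induced genes took 1.22% to 1.35% of the counts of a control library and 6.73% to 7.84% of an LPS library. The 504 repressed genes went from 1.16% to 1.19% of the counts to 0.353% to 0.406%. In bulk RNA, fewer cells that express a gene and less RNA of it per cell cannot be told apart.

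**Figure D1:**
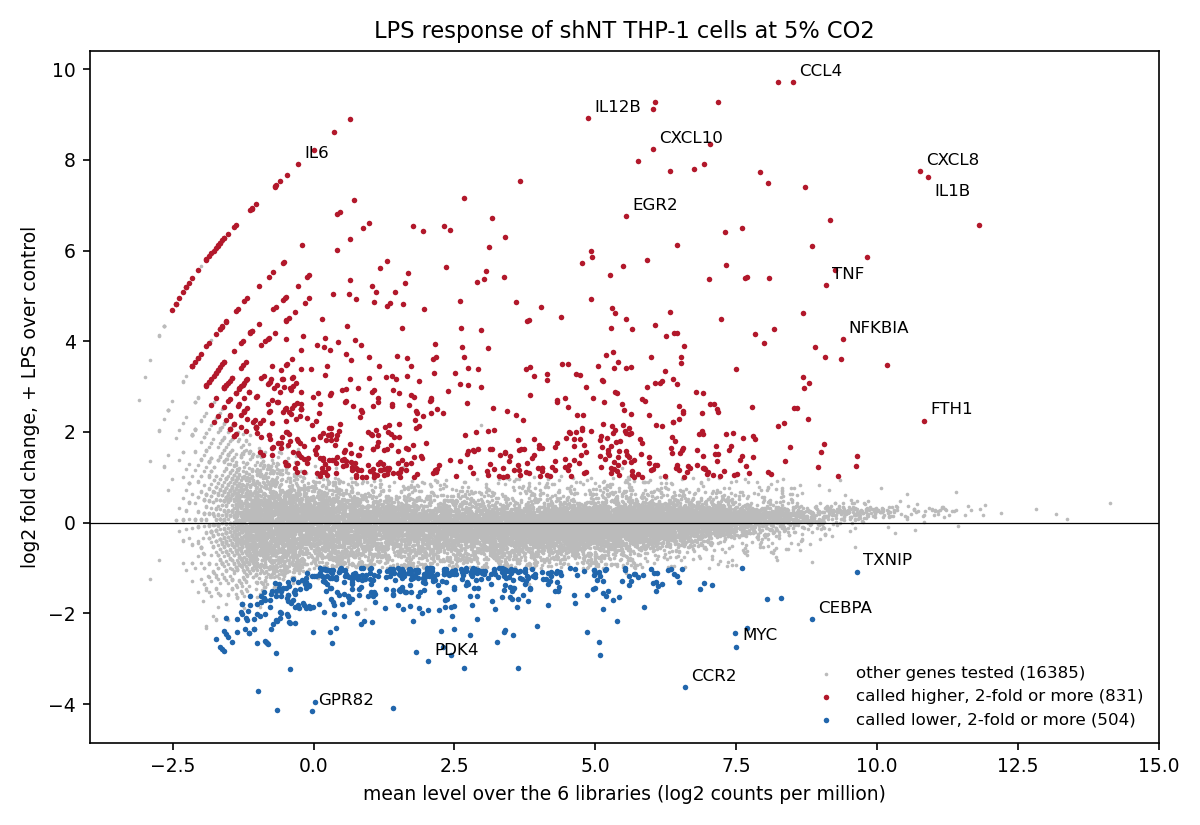
Each point is 1 of the 17720 genes tested, with its mean level over the 6 libraries (log2 CPM) on the horizontal axis and its log2 fold change, LPS over control, on the vertical axis. Genes called higher by 2-fold or more (831, red) reach a log2 fold change of 9.71, while those called lower (504, blue) end at -4.16.

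Among genes with a symbol, the most abundant induced transcripts were an interleukin, a chemokine, a ferritin and a few regulators. CXCL8, the neutrophil chemoattractant interleukin 8, stood at 9.36, 6.86 and 4.67 CPM per kb in the control libraries and 1750.2, 1464 and 1264 with LPS. Its groups were far apart and its fold was 215 (log2 fold change 7.75 ± 0.33 (SE), edgeR adjusted p = 2.94e-05). IL1B, the pro-inflammatory cytokine made as an inactive precursor, stood at 7.05, 5.15 and 6.26 CPM per kb in the controls and 1456, 1050.3 and 1127 with LPS, also with no overlap (log2 fold change 7.63 ± 0.18 (SE), edgeR adjusted p = 9.58e-11). CXCL8 and IL1B together held 0.00332% to 0.00456% of the counts in the controls and 0.604% to 0.808% with LPS. TNF, tumour necrosis factor, was already expressed before LPS, at 18.5, 18.9 and 12.5 CPM per kb in the controls and 655, 618 and 596 with LPS (log2 fold change 5.24 ± 0.15 (SE), edgeR adjusted p = 7.54e-11). FTH1, the ferritin heavy chain that stores iron, stood at 383, 264 and 278 CPM per kb in the controls and 1617, 1194 and 1556 with LPS (log2 fold change 2.25 ± 0.17 (SE), edgeR adjusted p = 3.1e-05). FTH1 has many processed copies in the genome, so its count is uncertain. PLEK, pleckstrin, a substrate of protein kinase C in leukocytes and platelets, stood at 59.2, 60.2 and 51.5 CPM per kb in the controls and 660.0, 609 and 630.4 with LPS (log2 fold change 3.48 ± 0.09 (SE), edgeR adjusted p = 1.36e-14). The induced gene with the most counts, ENSG00000112096, has an ID that the symbol tables used here do not pair with a name, and it was named after its values were seen. It held 1820, 1249 and 1628 counts in the controls and 147375, 111422 and 157674 with LPS (log2 fold change 6.55 ± 0.14 (SE), edgeR adjusted p = 6.28e-13).

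**Figure D2:**
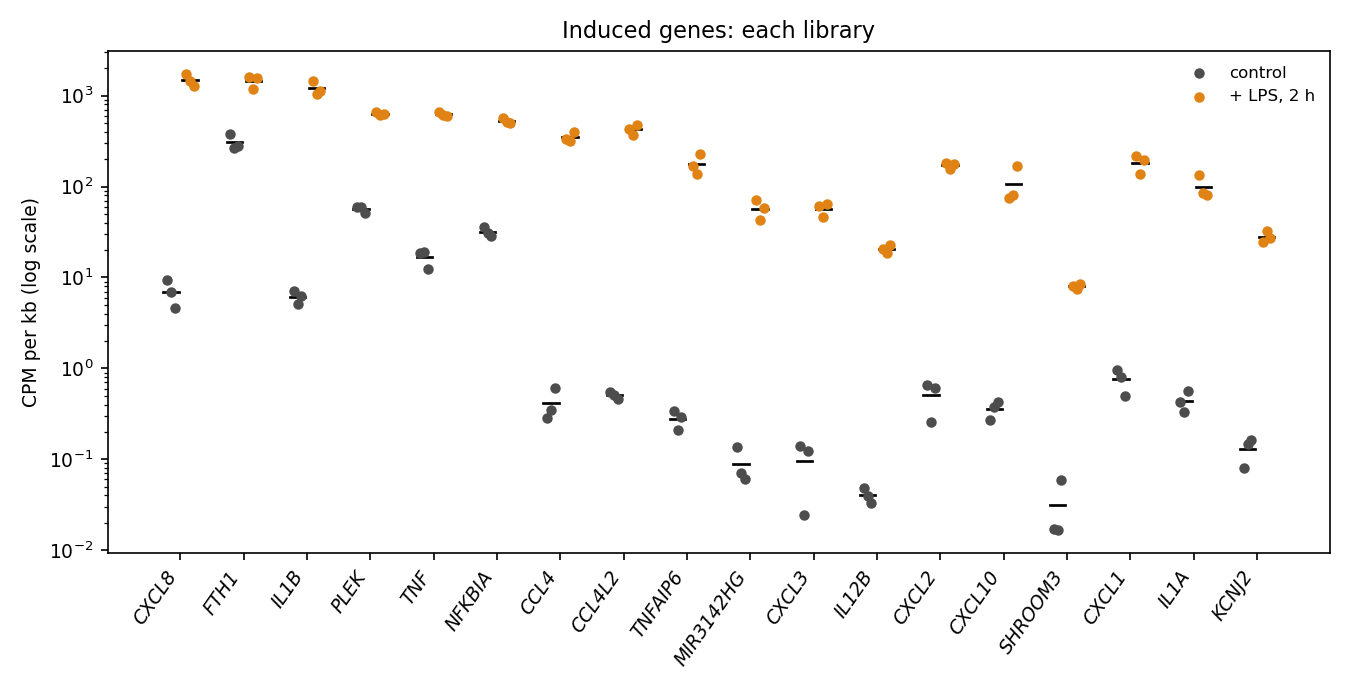
Points are the 3 control (grey) and 3 LPS (orange) libraries, bars are their means, and the vertical axis is CPM per kb on a log scale. Only genes with a symbol were ranked. The first 6 genes are the most abundant that rose 2-fold or more, and in none of these do the groups overlap. The other 12 have the largest log2 fold change among genes with a count in every library and no overlap, so lack of overlap was required of them.

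Of 21 genes of the receptor complex and proximal adaptors tested, 9 were called higher and 2 lower, with a median log2 fold change of 0.12 against -0.0013 over all genes. For this and every later list, the shares over all genes tested were 11.2% called higher and 11.6% called lower. TLR4, the receptor, stood at 5.52, 4.38 and 4.10 CPM per kb in the controls and 11.6, 10.3 and 7.99 with LPS, and its groups did not overlap (log2 fold change 1.097 ± 0.14 (SE), edgeR adjusted p = 5.64e-05). CD14 stood at 8.24, 4.79 and 4.20 CPM per kb in the controls and 6.41, 3.35 and 3.52 with LPS, with overlapping groups (log2 fold change -0.37 ± 0.34 (SE), edgeR adjusted p = 0.515). LY96, which encodes MD-2, had 1 to 7 counts in the controls and 4 to 10 with LPS, too few for a statement on its change. IRAK2, the kinase that sustains TLR signalling, stood at 1.88, 1.79 and 1.55 CPM per kb in the controls and 50.4, 32.7 and 46.9 with LPS (log2 fold change 4.65 ± 0.18 (SE), edgeR adjusted p = 4.14e-09). The TRIF gene TICAM1 had a log2 fold change of 2.49 ± 0.12 (SE), and the ubiquitin ligase genes PELI1 and TRAF3 had 1.70 ± 0.15 and 1.69 ± 0.10. TIRAP, the bridge between TLR4 and MyD88, was one of the pair that fell, from 3.65, 4.03 and 3.47 CPM per kb to 1.99, 1.76 and 2.06 (log2 fold change -0.93 ± 0.14 (SE), edgeR adjusted p = 0.000102), and TAB1 was the other (-0.40 ± 0.10 on the log2 scale). MYD88 rose by 0.33 ± 0.09 on the log2 scale, a call lost with library size only and without control replicate 3 or LPS replicate 1, and IRAK1, IRAK4, TRAF6 and IRF3 were not called, with log2 fold changes between -0.14 and 0.097.

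The NF-kB group was the one in which nearly every member rose. Of 19 subunits and inhibitors, 16 were called higher and 0 lower (median log2 fold change 1.98), and the 3 not called were the IkB kinase subunits CHUK, IKBKB and IKBKG (0.200, -0.06 and 0.04). The largest rise was that of TNIP3, an A20-binding protein, at 7.53 on the log2 scale. NFKBIZ, a nuclear IkB protein, stood at 0.829, 0.835 and 0.818 CPM per kb in the controls and 147, 147 and 125 with LPS (log2 fold change 7.41 ± 0.11 (SE), edgeR adjusted p = 5.53e-17). TNFAIP3, which encodes the ubiquitin-editing brake A20, stood at 7.31, 5.90 and 4.90 CPM per kb in the controls and 409.8, 352 and 281 with LPS (log2 fold change 5.85 ± 0.20 (SE), edgeR adjusted p = 1e-07). NFKBIA stood at 35.98, 30.8 and 28.5 CPM per kb in the controls and 563, 508 and 499 with LPS (log2 fold change 4.05 ± 0.10 (SE), edgeR adjusted p = 1.19e-14). In all 3 genes every LPS library exceeded every control many times over. The subunit genes NFKB2, RELB, NFKB1 and REL rose by 4.27, 3.39, 3.21 and 2.89 on the log2 scale. RELA, whose protein is mostly controlled by its release from IkB, moved by 0.35 ± 0.09 (SE), and was not called when counts were scaled by library size only or without control replicate 3 or LPS replicate 1.

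Chemokines had the highest median of all lists. Of 24 tested, 18 were called higher and 1 lower, with a median log2 fold change of 6.53. The largest change of all named genes was that of CCL4, a chemokine of the CC family, which held 13, 13 and 27 counts in the controls and 13325, 12485 and 16709 with LPS (log2 fold change 9.71 ± 0.19 (SE), edgeR adjusted p = 2.9e-13). CCL4L2, its near-identical copy, held 17, 13 and 14 and 11745, 9962 and 13610 counts, and the split of reads between the copies is uncertain. The same holds for CCL3 and CCL3L3, which rose by 7.73 and 6.503 on the log2 scale. Of the neutrophil chemoattractants on chromosome 4, CXCL2 stood at 0.658, 0.256 and 0.613 CPM per kb in the controls and 182, 158 and 175 with LPS (log2 fold change 8.36 ± 0.17 (SE), edgeR adjusted p = 6.86e-15), and its relatives CXCL1 and CXCL3 had log2 fold changes of 7.92 ± 0.27 and 9.12 ± 0.25 (SE). CXCL3 held only 7, 1 and 6 counts in the controls. CCL20, the ligand of CCR6, stood at 2.97, 1.79 and 1.68 CPM per kb in the controls and 454, 324 and 386 with LPS (log2 fold change 7.49 ± 0.22 (SE), edgeR adjusted p = 8.77e-09). CXCL10, a ligand of CXCR3, stood at 0.267, 0.372 and 0.430 CPM per kb in the controls and 75.4, 80.02 and 168 with LPS, with LPS replicate 3 well above the other LPS libraries (log2 fold change 8.24 ± 0.61 (SE), edgeR adjusted p = 0.000483). CCL5 differed from these in its high start, at 146, 128 and 110.2 CPM per kb in the controls and 236, 200.5 and 221 with LPS (log2 fold change 0.78 ± 0.10 (SE), edgeR adjusted p = 2.39e-05). CCL28 was the chemokine that fell (-0.57 ± 0.13), and CCL22, CCL23, CCL24, CXCL13 and CXCL16 were not called.

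Of 36 cytokines and growth factors tested, 20 were called higher and 4 lower (median log2 fold change 1.60). IL12B, the p40 chain shared by interleukins 12 and 23, stood at 0.0488, 0.0397 and 0.0333 CPM per kb in the controls and 20.6, 18.7 and 22.7 with LPS (log2 fold change 8.92 ± 0.21 (SE), edgeR adjusted p = 6.86e-15). Its control levels rested on 3, 2 and 2 counts. IL23A, the p19 chain of interleukin 23, stood at 2.84, 3.37 and 2.95 CPM per kb in the controls and 229, 215 and 329.9 with LPS (log2 fold change 6.42 ± 0.21 (SE), edgeR adjusted p = 7.57e-09). The p35 chain of interleukin 12, IL12A, had a log2 fold change of -1.25 ± 0.82 (SE) on low counts and was not called. IL1A, interleukin 1 alpha, stood at 0.423, 0.335 and 0.563 CPM per kb in the controls and 134, 83.9 and 81.02 with LPS (log2 fold change 7.81 ± 0.32 (SE), edgeR adjusted p = 2.1e-06). Low but new transcripts included IL6, with 0 counts in every control and 43, 15 and 29 with LPS, at least 26.97-fold higher against a floor of 3 counts over the 3 controls. CSF3, granulocyte colony-stimulating factor, likewise went from 0 in each control to 33, 25 and 50 counts, at least 33.5-fold higher. IL36G, at 10, 4 and 7 counts with LPS, was the third of the list with 0 in all controls. The anti-inflammatory IL10 had a log2 fold change of 2.06 ± 0.99 (SE) and IL1RN, the interleukin 1 receptor antagonist, one of 0.34 ± 0.13, and neither was called. The 4 that fell were TNFSF14, TNFSF13B, CLCF1 and TNFSF10. CLCF1 lost its call without control replicate 1 or 3 or LPS replicate 2 or 3, TNFSF10 without control replicate 3 or LPS replicate 1, and both with DESeq2. TNFSF14, the ligand LIGHT, stood at 12.4, 8.34 and 9.29 CPM per kb in the controls and 2.23, 1.64 and 1.74 with LPS, without overlap (log2 fold change -2.41 ± 0.16 (SE), edgeR adjusted p = 7.42e-08).

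6 promoters are shown, because these induced genes are known targets of NF-kB. Each line gives the 250 bases before the start site, 5′ to 3′ on the gene's strand, from RefSeq (GRCh38.p14). Capitals mark GGNNTTTCC, a form of the NF-kB site, or its reverse complement, and TATAAA, the TATA box, or its reverse complement. The windows are chr4:73740319-73740568 (plus strand) for CXCL8, chr4:74099196-74099445 (minus) for CXCL2, chr2:227813592-227813841 (plus) for CCL20, chr7:22726950-22727199 (plus) for IL6, chr14:35404750-35404999 (minus) for NFKBIA and chr6:137867009-137867258 (plus) for TNFAIP3.
CXCL8: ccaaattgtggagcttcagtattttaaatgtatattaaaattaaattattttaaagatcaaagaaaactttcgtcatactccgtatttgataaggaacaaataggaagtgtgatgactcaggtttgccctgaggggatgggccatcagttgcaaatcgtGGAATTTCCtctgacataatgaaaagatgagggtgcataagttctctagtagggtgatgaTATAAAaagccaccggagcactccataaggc
CXCL2: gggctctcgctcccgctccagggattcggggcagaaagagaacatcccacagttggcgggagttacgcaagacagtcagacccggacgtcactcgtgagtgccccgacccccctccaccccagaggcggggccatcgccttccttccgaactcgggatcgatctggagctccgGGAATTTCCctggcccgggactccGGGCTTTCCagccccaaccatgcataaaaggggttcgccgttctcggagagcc
CCL20: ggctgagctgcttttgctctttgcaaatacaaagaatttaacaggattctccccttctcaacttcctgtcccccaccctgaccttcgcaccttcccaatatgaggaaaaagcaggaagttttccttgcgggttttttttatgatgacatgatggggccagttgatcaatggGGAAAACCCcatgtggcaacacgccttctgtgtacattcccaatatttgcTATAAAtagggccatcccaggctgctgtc
IL6: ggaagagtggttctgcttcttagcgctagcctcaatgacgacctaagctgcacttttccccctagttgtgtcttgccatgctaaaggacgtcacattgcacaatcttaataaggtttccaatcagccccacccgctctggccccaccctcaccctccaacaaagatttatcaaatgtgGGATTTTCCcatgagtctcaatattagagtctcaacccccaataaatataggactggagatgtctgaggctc
NFKBIA: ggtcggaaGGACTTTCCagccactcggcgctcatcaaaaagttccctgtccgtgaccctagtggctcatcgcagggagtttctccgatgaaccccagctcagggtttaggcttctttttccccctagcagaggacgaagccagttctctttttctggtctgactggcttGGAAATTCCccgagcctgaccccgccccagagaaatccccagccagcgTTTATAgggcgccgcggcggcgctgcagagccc
TNFAIP3: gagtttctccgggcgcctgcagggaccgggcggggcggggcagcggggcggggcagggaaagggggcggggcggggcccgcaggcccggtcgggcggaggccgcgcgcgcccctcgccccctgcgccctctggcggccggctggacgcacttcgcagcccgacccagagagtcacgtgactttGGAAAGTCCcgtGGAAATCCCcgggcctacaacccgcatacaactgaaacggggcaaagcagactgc

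A GGNNTTTCC match or its reverse complement began 91 bases before the start in CXCL8, 77 and 53 in CXCL2, 79 in CCL20, 72 in IL6, 242 and 81 in NFKBIA, and 67 and 55 in TNFAIP3. TATAAA or its reverse complement lay 31 bases before the start in CXCL8, 29 in CCL20 and 33 in NFKBIA. Across 12085 genes tested with a RefSeq window of 300 bases (250 before to 50 after the start, 1 window a gene, both strands), GGNNTTTCC was in 6.87%. It was in 16.04% of the 530 windows of genes higher by 2-fold or more, in 21.5% of the 191 of genes higher by 8-fold or more, and in 4.44% of the 315 of genes lower by 2-fold or more. TATAAA was in 6.15% of all windows, 15.5% and 24.1% of those of the 2 induced classes and 5.71% of the repressed. TGANTCA, an AP-1 site, was in 4.67%, 7.74%, 11.5% and 6.35% in the same order. TGACGTCA, the cAMP response element, was in 3.00%, 3.02%, 3.14% and 0.952%, and GAAANNGAA, from the interferon-stimulated response element, in 6.66%, 7.74%, 12.04% and 6.67%. GGGCGG, an Sp1 site, was in 67.7%, 58.5%, 48.2% and 60.6%. Windows where GGNNTTTCC shared a base with another of these motifs numbered 32 with GGGCGG and 6 with GAAANNGAA, and GAAANNGAA shared bases with GGGCGG in 4. GC content had a median of 65.0% over all windows and 61.0% over those of genes higher by 8-fold or more, with 25 and 16 CG pairs. Windows were matched for 68.2% of all genes tested, 63.8% of those higher and 62.5% of those lower by 2-fold or more, under 80% in each case, so the shares are void as a check of the whole sets, and a match describes letters, not binding.

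**Figure D3:**
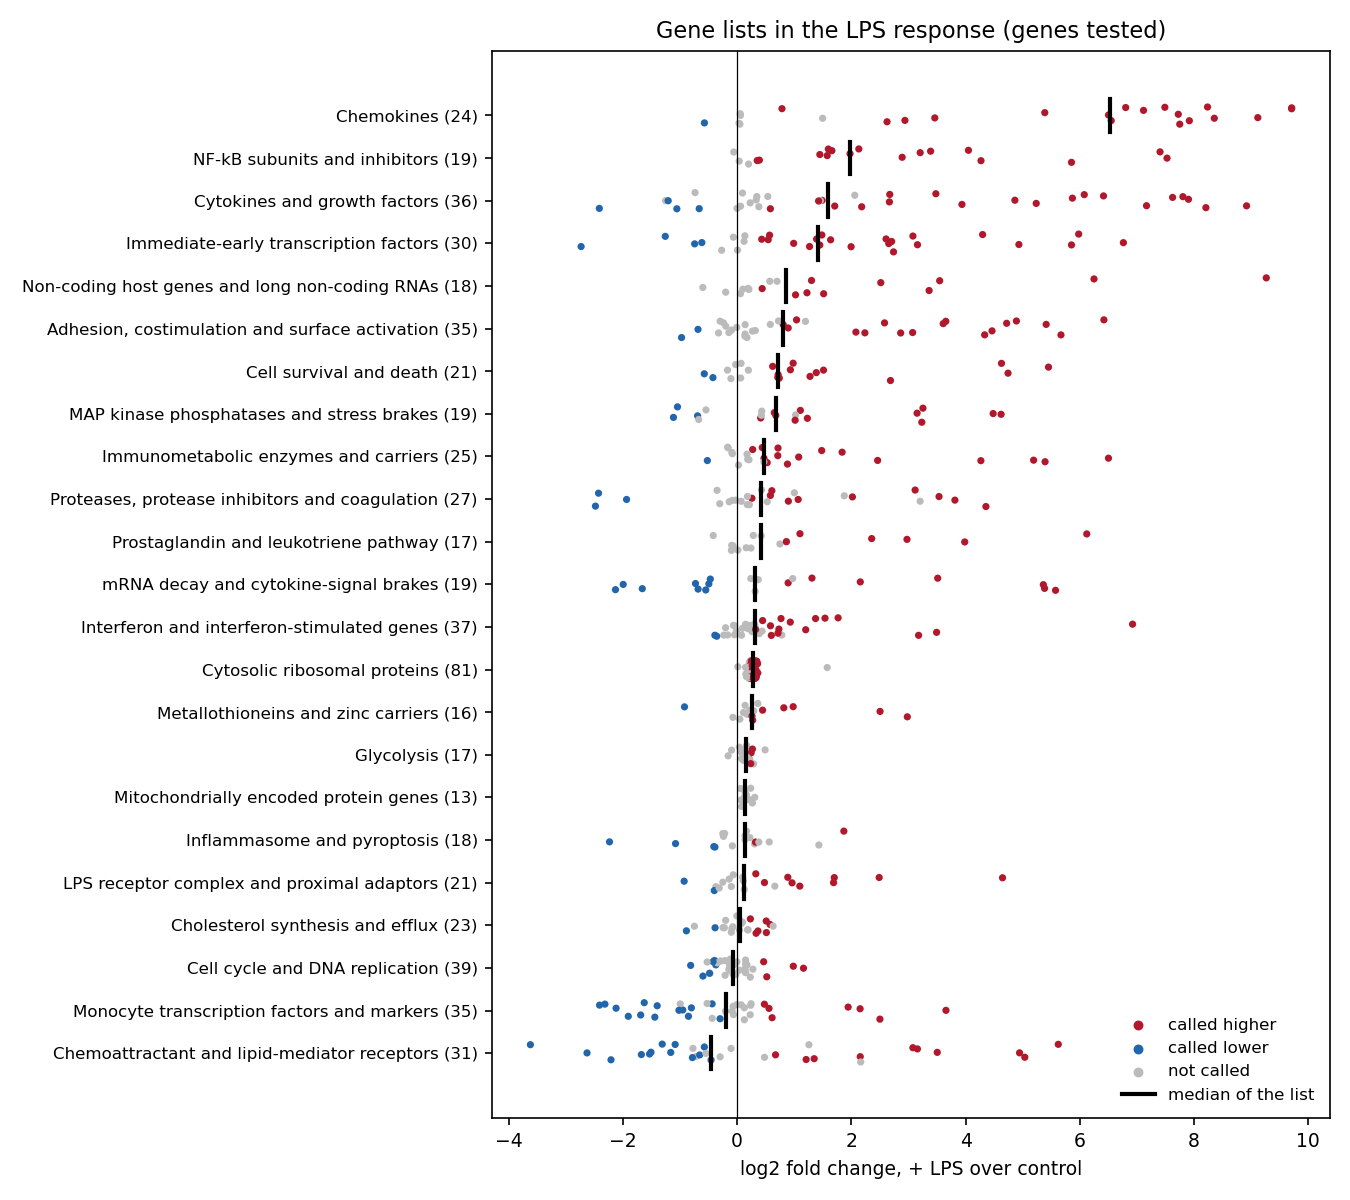
Each row is a gene list with the number of its genes tested, each point a gene's log2 fold change (LPS over control), red where called higher, blue where called lower and grey where not called. The black bar is the list's median, which runs from 6.53 in the chemokines to -0.46 in the chemoattractant receptors. The zinc finger list is left out for its size.

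Immediate-early transcription factors differed among themselves. Of 30 tested, 21 were called higher and 4 lower (median 1.42). EGR2, a zinc finger factor of the early growth response family, stood at 0.256, 0.282 and 0.150 CPM per kb in the controls and 24.2, 25.2 and 24.5 with LPS (log2 fold change 6.76 ± 0.16 (SE), edgeR adjusted p = 6.86e-15). NR4A3 stood at 0.142, 0.182 and 0.124 CPM per kb in the controls and 9.13, 9.20 and 9.69 with LPS (log2 fold change 5.98 ± 0.15 (SE), edgeR adjusted p = 1.31e-14). NR4A2 started higher, at 1.06, 0.745 and 0.986 CPM per kb in the controls and 18.4, 21.3 and 15.5 with LPS (log2 fold change 4.298 ± 0.15 (SE), edgeR adjusted p = 4.13e-12). The third orphan receptor of the family, NR4A1, rose less, with a log2 fold change of 1.48 ± 0.18 (SE). Among AP-1 subunits, JUN and JUNB rose by 3.08 ± 0.20 and 2.61 ± 0.10, while FOS, known to peak within the first hour after a stimulus, stood at 7.90, 7.83 and 6.19 CPM per kb in the controls and 10.1, 9.80 and 9.45 with LPS (log2 fold change 0.43 ± 0.11 (SE), edgeR adjusted p = 0.0102), a call lost with library size only, without control replicate 3 and in 1 fit to all 36 libraries. MYC, the growth-promoting factor, went the other way, from 97.4, 103 and 109 CPM per kb in the controls to 17.3, 13.1 and 15.9 with LPS, without overlap (log2 fold change -2.73 ± 0.10 (SE), edgeR adjusted p = 5.78e-12). FOSL2, BATF and BATF2 were the others called lower (-0.62, -0.74 and -1.26), FOSL2 not without control replicate 1, 2 or 3 or LPS replicate 2.

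Brakes on signalling and on mRNA life were split between strong induction and repression. Of 19 genes of mRNA decay and cytokine-signal control, 7 were called higher and 8 lower (median 0.32). BTG2, which promotes deadenylation, stood at 9.54, 9.33 and 8.09 CPM per kb in the controls and 395, 421 and 462 with LPS (log2 fold change 5.58 ± 0.11 (SE), edgeR adjusted p = 5.17e-16). ZC3H12A, the endonuclease regnase-1 that cuts cytokine mRNAs, stood at 4.13, 4.81 and 3.22 CPM per kb in the controls and 166, 169 and 168 with LPS (log2 fold change 5.38 ± 0.13 (SE), edgeR adjusted p = 2.59e-14). SOCS3, an inhibitor of interleukin 6 family signalling, stood at 2.66, 1.88 and 2.07 CPM per kb in the controls and 98.1, 77.2 and 96.5 with LPS (log2 fold change 5.36 ± 0.14 (SE), edgeR adjusted p = 5.29e-13). Its relatives SOCS1 and CISH were called lower. SOCS1 stood at 4.80, 6.84 and 2.70 CPM per kb in the controls and 1.13, 1.01 and 1.39 with LPS (log2 fold change -1.995 ± 0.32 (SE), edgeR adjusted p = 0.00048), and CISH at 2.56, 2.17 and 2.14 CPM per kb in the controls and 0.533, 0.382 and 0.639 with LPS (log2 fold change -2.13 ± 0.19 (SE), edgeR adjusted p = 2.48e-07). Of the zinc finger proteins that bind AU-rich elements, ZFP36 rose by 0.89 ± 0.10 (SE) on the log2 scale, while ZFP36L2 stood at 135, 122 and 126 CPM per kb in the controls and 40.2, 43.98 and 36.6 with LPS (log2 fold change -1.66 ± 0.09 (SE), edgeR adjusted p = 2.15e-10). Of 19 MAP kinase phosphatases and stress genes, 11 were called higher and 3 lower (median 0.68). PPP1R15A, DUSP8, DUSP1 and DUSP16 rose by 4.62, 4.48, 3.23 and 3.15 on the log2 scale, and SPRY2, DUSP7 and DUSP14 had -1.04, -1.12 and -0.69.

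Of 37 genes tested on the interferon list, 20 were not called at 2 h. The list had 15 called higher (40.5%) and 2 lower (5.41%), beside 11.2% and 11.6% over all genes. Its median was 0.31, and with library size only 12 were called higher and 4 lower. IFNB1, interferon beta, had 0 counts in each control and 10, 19 and 15 with LPS, at least 13.6-fold higher against the floor of 3 counts. GBP2, a guanylate-binding protein, stood at 0.665, 0.541 and 0.542 CPM per kb in the controls and 6.82, 5.55 and 7.27 with LPS (log2 fold change 3.49 ± 0.15 (SE), edgeR adjusted p = 1.36e-11), and GBP1 and GBP5 rose by 3.18 and 1.77 on the log2 scale. IFIT2, IFIT3, OASL and IFIH1 had log2 fold changes of 1.200, 0.93, 1.54 and 1.37. MX1, an antiviral GTPase that answers to type I interferon, stood at 4.48, 5.26 and 5.25 CPM per kb in the controls and 4.86, 4.61 and 5.005 with LPS, with overlapping groups (log2 fold change -0.04 ± 0.10 (SE), edgeR adjusted p = 0.817). RSAD2, OAS1, OAS2 and IFI44L were likewise not called, with log2 fold changes from -0.202 to 0.15.

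Inflammasomes process interleukin 1 beta and pyroptosis releases it. Of 18 genes of both tested, 2 were called higher (11.1%) and 4 lower (22.2%), beside 11.2% and 11.6% over all genes. Their median was 0.14, and -0.04 with library size only. NINJ1, which ruptures the plasma membrane in lytic death, stood at 39.2, 29.03 and 26.8 CPM per kb in the controls and 137, 94.98 and 113 with LPS (log2 fold change 1.87 ± 0.17 (SE), edgeR adjusted p = 8.15e-05). NLRP3, the sensor commonly described as primed by NF-kB, stood at 28.7, 25.1 and 23.8 CPM per kb in the controls and 22.3, 20.1 and 15.7 with LPS (log2 fold change -0.41 ± 0.12 (SE), edgeR adjusted p = 0.0195), a call lost without control replicate 1 or 2 or LPS replicate 3 and in 1 fit to all 36 libraries. TXNIP is a thioredoxin-binding protein and glucose-uptake inhibitor. Of the genes with a symbol that fell 2-fold or more, it was the most abundant before LPS. It stood at 304, 291 and 295 CPM per kb in the controls and 130.1, 124 and 165 with LPS (log2 fold change -1.08 ± 0.10 (SE), edgeR adjusted p = 8.58e-07). NLRC4 fell from 63, 45 and 63 to 15, 11 and 8 counts (log2 fold change -2.24 ± 0.30 (SE), edgeR adjusted p = 3.2e-05), CARD8 had a log2 fold change of -0.39 ± 0.09 (SE), and CASP1, PYCARD and GSDMD were not called (-0.08, -0.22 and -0.25).

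Of 21 genes of survival and death, 13 were called higher and 2 lower (median 0.72). BIRC3, an inhibitor of apoptosis, stood at 0.257, 0.168 and 0.245 CPM per kb in the controls and 10.5, 9.06 and 9.99 with LPS (log2 fold change 5.45 ± 0.15 (SE), edgeR adjusted p = 3.28e-14), and BCL2A1, a short-lived relative of BCL2, at 2.89, 2.82 and 2.03 CPM per kb in the controls and 79.3, 55.96 and 70.5 with LPS (log2 fold change 4.74 ± 0.17 (SE), edgeR adjusted p = 1.26e-11). CASP8 and BAK1 were called lower (-0.58 and -0.42). Of 17 prostaglandin and leukotriene genes, 6 were called higher and 0 lower (median 0.42). PTGS2, the inducible cyclooxygenase, stood at 0.443, 0.426 and 0.524 CPM per kb in the controls and 41.1, 30.7 and 25.3 with LPS (log2 fold change 6.12 ± 0.21 (SE), edgeR adjusted p = 4.55e-09). The prostaglandin E2 receptor gene PTGER4 stood at 24.2, 26.4 and 20.05 CPM per kb in the controls and 212, 209.6 and 130.5 with LPS (log2 fold change 2.97 ± 0.22 (SE), edgeR adjusted p = 8.62e-05), while PTGES, the inducible synthase, was low and not called (0.87 ± 0.74).

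Of 35 genes of adhesion, costimulation and surface activation, 17 were called higher and 2 lower (median 0.81). ICAM1, the ligand of leukocyte integrins, stood at 2.13, 1.49 and 1.28 CPM per kb in the controls and 98.5, 69.6 and 81.2 with LPS (log2 fold change 5.67 ± 0.20 (SE), edgeR adjusted p = 4.23e-08). CD83, an activation marker of antigen-presenting cells, stood at 3.68, 3.77 and 3.69 CPM per kb in the controls and 165, 155 and 152 with LPS, with little spread within a group (log2 fold change 5.41 ± 0.10 (SE), edgeR adjusted p = 2.14e-16). CD40, the receptor for the T cell ligand CD154, stood at 6.13, 5.78 and 5.73 CPM per kb in the controls and 45.4, 39.2 and 63.02 with LPS (log2 fold change 3.07 ± 0.17 (SE), edgeR adjusted p = 2.17e-07). CD80 rose from low counts (3.61 ± 0.53), and CD86, the other B7 ligand, was not called (-0.24 ± 0.31). SELPLG and TNFRSF1B were called lower (-0.69 and -0.97). Of 25 immunometabolic genes, 15 were called higher and 1 lower (median 0.47), and with library size only 11 and 1. SLC2A6, a hexose transporter of the glucose transporter family, stood at 2.43, 2.85 and 2.57 CPM per kb in the controls and 114, 87.00 and 126 with LPS (log2 fold change 5.39 ± 0.15 (SE), edgeR adjusted p = 1.54e-11). GCH1, the first enzyme of tetrahydrobiopterin synthesis, stood at 1.32, 1.86 and 1.81 CPM per kb in the controls and 31.97, 25.7 and 37.5 with LPS (log2 fold change 4.27 ± 0.17 (SE), edgeR adjusted p = 7.18e-10). ACOD1, which makes itaconate, had 0, 0 and 2 counts in the controls and 87, 33 and 85 with LPS (log2 fold change 6.503 ± 0.69 (SE), edgeR adjusted p = 1.21e-05). SLC2A1, the main glucose transporter, was the member that fell (-0.52 ± 0.10).

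Receptors for chemoattractants and lipid mediators formed the list with the lowest median, -0.46, with 10 of 31 called higher and 13 lower. CCR2, the receptor for CCL2 that marks classical monocytes, stood at 62.99, 40.6 and 37.6 CPM per kb in the controls and 4.81, 4.52 and 2.10 with LPS (log2 fold change -3.62 ± 0.39 (SE), edgeR adjusted p = 0.00221). The drop was 12.3-fold, and every LPS library was under every control. CCR1 stood at 26.6, 19.8 and 16.1 CPM per kb in the controls and 3.65, 3.55 and 2.84 with LPS (log2 fold change -2.63 ± 0.18 (SE), edgeR adjusted p = 6.08e-07). CX3CR1, the fractalkine receptor, stood at 16.4, 13.3 and 14.8 CPM per kb in the controls and 6.34, 4.86 and 4.38 with LPS (log2 fold change -1.51 ± 0.13 (SE), edgeR adjusted p = 4.07e-07), and CXCR2, a receptor for CXCL8, at 4.57, 5.81 and 5.58 CPM per kb in the controls and 1.45, 1.95 and 1.55 with LPS (log2 fold change -1.68 ± 0.16 (SE), edgeR adjusted p = 4.91e-07). The complement receptor C3AR1 rose, from 6.34, 6.97 and 6.11 to 54.9, 49.3 and 58.6 CPM per kb (log2 fold change 3.08 ± 0.11 (SE), edgeR adjusted p = 9.92e-13), and GPR84, a receptor for medium-chain fatty acids, from 2.20, 1.45 and 1.33 to 23.4, 16.8 and 16.4 (log2 fold change 3.504 ± 0.20 (SE), edgeR adjusted p = 2.75e-08). HCAR2, the niacin receptor, had 2, 0 and 3 counts in the controls and 110, 52 and 89 with LPS (log2 fold change 5.62 ± 0.50 (SE), edgeR adjusted p = 5.12e-07).

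Transcription factors and markers of the monocytic lineage, taken as 1 list, fell in larger number than they rose. Of 35 factors and markers, 7 were called higher and 14 lower (median -0.20). CEBPA, a factor required for granulocyte and monocyte progenitors, stood at 286, 331 and 225 CPM per kb in the controls and 69.7, 77.7 and 45.2 with LPS (log2 fold change -2.12 ± 0.25 (SE), edgeR adjusted p = 0.00239). GFI1, a transcriptional repressor of myeloid progenitors, stood at 92.6, 112 and 103 CPM per kb in the controls and 17.01, 26.9 and 17.6 with LPS (log2 fold change -2.32 ± 0.18 (SE), edgeR adjusted p = 2.6e-05). MYB, the progenitor factor, stood at 70.8, 69.1 and 77.8 CPM per kb in the controls and 19.4, 26.5 and 21.3 with LPS (log2 fold change -1.69 ± 0.11 (SE), edgeR adjusted p = 1.06e-08). All 3 fell without overlap. HHEX, RARA, CEBPE, ID3, ID2 and ID1 had log2 fold changes of -2.41, -1.91, -1.63, -1.44, -1.400 and -1.02. In the other direction BCL6, a repressor of inflammatory genes, stood at 1.78, 1.53 and 1.33 CPM per kb in the controls and 24.2, 16.98 and 17.1 with LPS (log2 fold change 3.66 ± 0.16 (SE), edgeR adjusted p = 3.55e-09), and SPI1, the lineage factor PU.1, at 155, 151 and 129 CPM per kb in the controls and 251, 194 and 215 with LPS (log2 fold change 0.61 ± 0.10 (SE), edgeR adjusted p = 0.000296). The granule protein genes ELANE, AZU1, PRTN3 and MPO, and LYZ, were not called (0.23, 0.13, 0.13, -0.09 and -0.07).

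**Figure D4:**
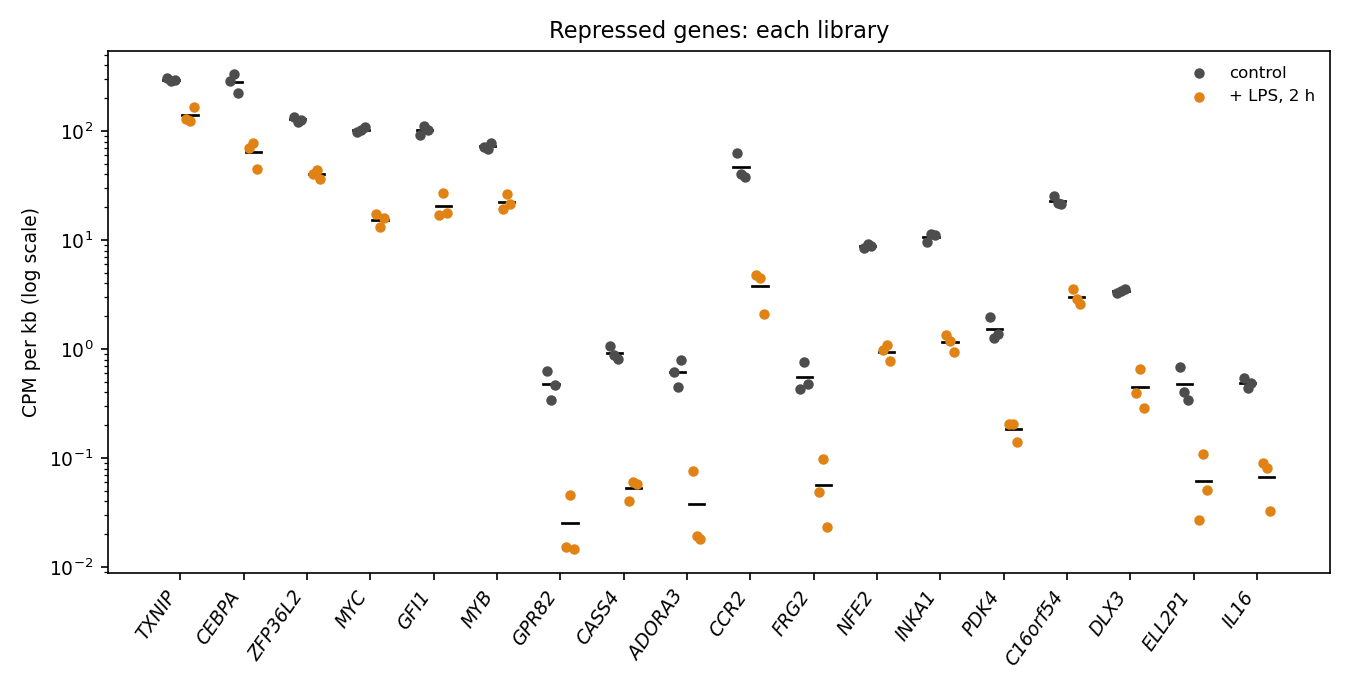
Points are the 3 control (grey) and 3 LPS (orange) libraries, bars are their means, and the vertical axis is CPM per kb on a log scale. Only genes with a symbol were ranked. The first 6 genes are the most abundant that fell 2-fold or more, and in none of these do the groups overlap. The other 12 have the largest fall among genes with a count in every library and no overlap, so lack of overlap was required of them.

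Among genes with a count in every library, the largest falls were smaller than the largest rises and most were of genes with low counts. GPR82, an orphan receptor, went from 47, 21 and 34 to 1, 3 and 1 counts (log2 fold change -4.16 ± 0.52 (SE), edgeR adjusted p = 1.47e-05), and CASS4, an adhesion scaffold, from 121, 82 and 89 to 4, 6 and 6 (log2 fold change -4.08 ± 0.30 (SE), edgeR adjusted p = 2.65e-08). ADORA3, the adenosine A3 receptor, went from 37, 22 and 46 to 4, 1 and 1 counts (log2 fold change -3.96 ± 0.51 (SE), edgeR adjusted p = 2.24e-05). NFE2, a factor of the erythroid and megakaryocytic lines, was better counted, at 8.44, 9.16 and 8.79 CPM per kb in the controls and 0.979, 1.08 and 0.770 with LPS (log2 fold change -3.21 ± 0.16 (SE), edgeR adjusted p = 9.31e-11). PDK4, a kinase that shuts off pyruvate dehydrogenase, stood at 1.97, 1.26 and 1.38 CPM per kb in the controls and 0.205, 0.204 and 0.140 with LPS (log2 fold change -3.06 ± 0.25 (SE), edgeR adjusted p = 1.17e-07). INKA1, C16orf54, DLX3 and IL16 had log2 fold changes of -3.21 ± 0.20, -2.92 ± 0.13, -2.91 ± 0.23 and -2.85 ± 0.27 (SE), and FRG2 and the pseudogene ELL2P1, both of families with close copies, -3.22 ± 0.54 and -2.87 ± 0.58. Of 27 proteases, inhibitors and coagulation genes, 10 were called higher and 3 lower (median 0.43, or 0.26 with the gene at 0 in the controls placed at its bound). THBD, thrombomodulin, the endothelial and monocyte cofactor that turns thrombin anticoagulant, was called lower, at 76.7, 74.8 and 64.96 CPM per kb in the controls and 16.2, 14.1 and 9.76 with LPS (log2 fold change -2.43 ± 0.17 (SE), edgeR adjusted p = 5.39e-06). F3, tissue factor, rose by 0.61 ± 0.10 (SE) on the log2 scale. SERPINB2 and ADAMTS4 were the others called lower (-1.94 and -2.48).

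Zinc finger genes were called lower far more often than higher, mostly by less than 2-fold. Of 466 numbered ZNF genes tested, 175 were called lower and 11 higher (median -0.34), beside 11.6% and 11.2% over all genes. Lower calls made up 37.6% of the list, and there were 156 with DESeq2 and 272 with library size only. ZNF217 stood at 15.3, 14.2 and 13.7 CPM per kb in the controls and 6.97, 6.70 and 6.23 with LPS (log2 fold change -1.11 ± 0.09 (SE), edgeR adjusted p = 9.03e-08) and ZNF366 at 1.67, 0.964 and 1.33 CPM per kb in the controls and 0.336, 0.271 and 0.270 with LPS (log2 fold change -2.17 ± 0.25 (SE), edgeR adjusted p = 6.52e-06). The exception with the largest rise was ZNF697, at 3.56, 3.53 and 3.88 CPM per kb in the controls and 29.8, 30.5 and 30.7 with LPS (log2 fold change 3.06 ± 0.09 (SE), edgeR adjusted p = 1.55e-13). The direction was the other one for cytosolic ribosomal protein genes, but their calls rested on the scaling. Of 81 tested, 61 were called higher and 0 lower (median 0.27, range 0.01 to 1.58), and with library size only 0 were called in either direction (median 0.10). The member at the top of that range, RPL3L, was not called.

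The 13 mitochondrially encoded protein genes had 0 called in either direction with edgeR and with DESeq2, and 0 at an unadjusted edgeR p under 0.05 (median 0.14, and -0.04 with library size only). Of 39 cell cycle and replication genes, 4 were called higher (10.3%) and 6 lower (15.4%), near the 11.2% and 11.6% over all genes (median -0.07). Among the called were CCND1 (1.16 ± 0.11) and E2F8 (-0.81 ± 0.12). Of 17 glycolysis genes, 3 were called higher (17.6%, beside 11.2% over all genes) and 0 lower (median 0.16, and 0 called with library size only). Of 23 genes of cholesterol synthesis and efflux, 6 were called higher (beside 11.2% over all genes) and 2 lower (median 0.06), and 3 and 6 with library size only. Of 16 metallothioneins and zinc carriers, 7 were called higher and 1 lower (median 0.27). MTF1, the zinc-sensing factor, rose by 2.50 ± 0.10 on the log2 scale, while SLC30A1, the zinc exporter, fell from 13.4, 12.3 and 13.6 to 6.26, 7.36 and 7.04 CPM per kb (log2 fold change -0.92 ± 0.10 (SE), edgeR adjusted p = 1.94e-06).

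Long non-coding RNAs made up 22.6% of the genes higher by 2-fold or more and 19.2% of those lower, but 3.94% of the calls under 2-fold and 9.67% of all calls, beside 13.1% of all genes tested. Of 18 host genes and long non-coding RNAs on a fixed list, 10 were called higher and 0 lower (median 0.86). MIR3142HG, the host of miR-146a, stood at 0.137, 0.0714 and 0.0600 CPM per kb in the controls and 70.3, 42.6 and 58.5 with LPS (log2 fold change 9.27 ± 0.30 (SE), edgeR adjusted p = 6.49e-09). Its control levels rested on 7, 3 and 3 counts. MIR155HG, the host of miR-155, stood at 3.87, 4.45 and 4.05 CPM per kb in the controls and 42.99, 43.3 and 57.2 with LPS (log2 fold change 3.55 ± 0.14 (SE), edgeR adjusted p = 7.99e-12). Both microRNAs are known as targets of NF-kB, and the libraries measured their host transcripts only. In all, 39 genes were called higher from 0 counts in every control and 0 were called lower to 0 in every LPS library. Beside IL6 and CSF3, those with a symbol and the most counts were CD44-DT (50, 48 and 44 counts with LPS), FRMD7 (23, 26 and 25), LINC02605 (35, 20 and 12) and RN7SL124P (17, 20 and 26). RN7SL124P lies within the bounds of TNFAIP6, which held 12, 6 and 10 counts in the controls and 5199, 4260 and 7387 with LPS (log2 fold change 9.29 ± 0.29 (SE), edgeR adjusted p = 2.59e-08). The strand setting of the counting is not given, so reads of overlapping and antisense genes cannot be told apart. SHROOM3 and KCNJ2, which no list holds, were the other named genes of the largest rises, with log2 fold changes of 7.97 ± 0.23 and 7.75 ± 0.18 (SE).

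Genes of both directions were shorter and had fewer exons than the genes tested. Protein-coding genes tested spanned a median of 32022.5 bases with 11 merged exons. Those higher by 2-fold or more spanned 22457 bases with 7 exons, those higher by 8-fold or more 15256 with 6, and those lower by 2-fold or more 14354 with 5. Genes of 4 exons or fewer were 15.2% of all, 28.1% of those higher and 40.9% of those lower by 2-fold or more. Over 10 groups of equal size by exonic length, the median log2 fold change ran from 0.07 in the shortest to -0.04 in group 8 and -0.02 in the longest.

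The response was then set beside that of libraries not used above. Of the 831 genes higher by 2-fold or more, 92.7% were also called higher with LPS in shNT cells at 10% CO2, 90.4% in shNR4A2 cells at 5% CO2 and 91.8% in shNR4A3 cells at 5% CO2. There 31.2%, 18.2% and 25.3% of all genes were called, counting both directions together. Of the 504 lower by 2-fold or more, 82.5%, 75.4% and 77.0% were also called lower, and 0 of either set were called in the opposite direction. In those comparisons 5.95%, 5.34% and 6.09% of all genes were higher and 4.44%, 3.26% and 3.74% lower by 2-fold or more. Genes called at 2-fold or more in both made up 71.1%, 77.9% and 69.4% of the higher genes of those comparisons and 45.5%, 57.4% and 53.5% of their lower genes. The targeted genes were lower in their knockdown lines. NR4A2 had a mean of 0.932 CPM per kb without and 18.4 with LPS in shNT cells, against 0.492 and 6.40 in shNR4A2 cells. NR4A3 had 0.149 and 9.34 in shNT cells, against 0.0261 and 5.29 in shNR4A3 cells.

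Whether the LPS response differed with CO2 was tested as an interaction over the 12 shNT libraries. edgeR called 4 genes (0.0226%), all with a larger rise at 10% than at 5% CO2, and the unadjusted p was under 0.05 for 1024. In this and the later interactions, a share of about 0.05 of the 17720 genes would fall there with no difference. HIVEP2, a zinc finger factor that binds kappa B-like sites, stood at 4.10, 4.21 and 4.40 CPM per kb at 5% CO2 and 12.3, 10.4 and 14.1 with LPS. At 10% CO2 it stood at 3.38, 2.76 and 3.10, and 20.1, 19.8 and 20.1 with LPS, a difference of 1.17 ± 0.14 (SE) on the log2 scale (edgeR adjusted p = 0.00217). The controls were lower and the LPS libraries higher at 10% CO2, without overlap. PDGFA, a growth factor chain, rose by 2.67 ± 0.15 at 5% and 4.00 ± 0.14 at 10% CO2, a difference of 1.33 ± 0.22 (edgeR adjusted p = 0.0434). CD44, the hyaluronan receptor, rose by 1.04 ± 0.11 and 2.20 ± 0.12, a difference of 1.16 ± 0.18 (edgeR adjusted p = 0.0434). STARD4, a cholesterol carrier, rose by 1.81 ± 0.10 and 2.72 ± 0.12, a difference of 0.91 ± 0.15 (edgeR adjusted p = 0.0434). HIVEP2 stayed called with each of the 12 libraries left out in turn, while PDGFA, CD44 and STARD4 each lost the call in 9 of the 12 fits. DESeq2 called 53 genes, and the edgeR count moved with single libraries: it was 37 without 5% CO2 + LPS replicate 3, 27 without 10% CO2 replicate 1, 6 without 10% CO2 + LPS replicate 1, 2 without 10% CO2 + LPS replicate 3, and 1 without each of the other 8 libraries.

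**Figure D5:**
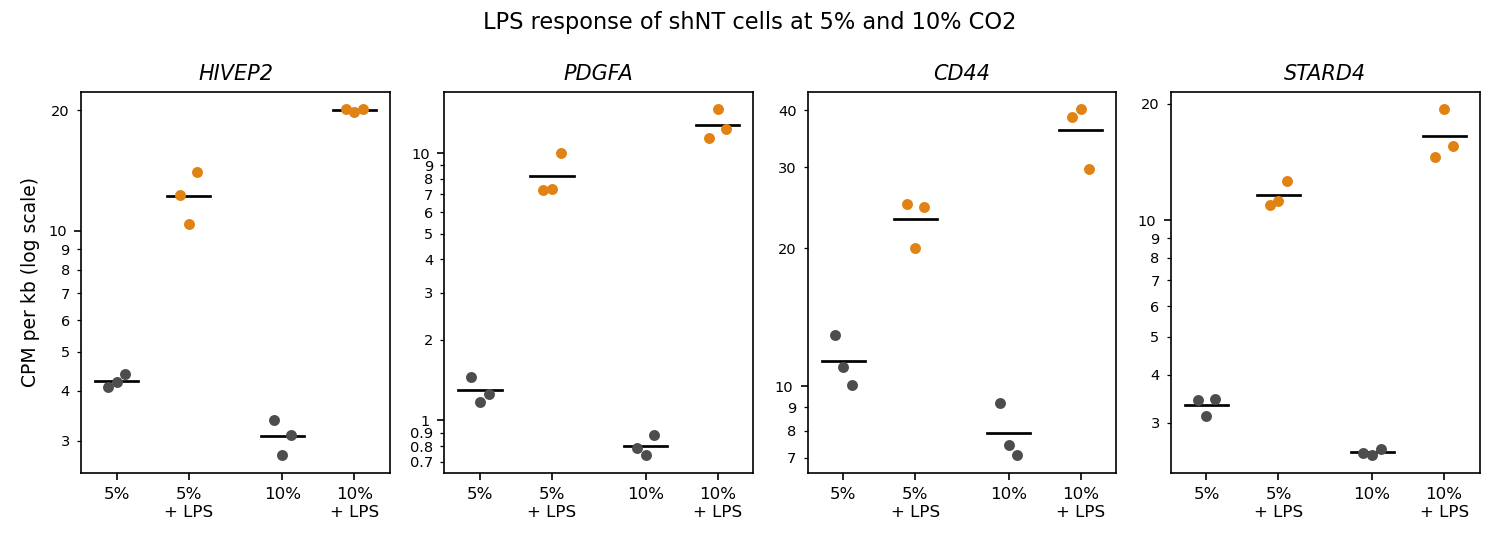
The 4 genes called in the interaction of LPS and CO2 in shNT cells, with points for the 3 libraries of each group, bars for their means and CPM per kb on log axes of different range. In each gene the controls (grey) are lower and the LPS libraries (orange) higher at 10% than at 5% CO2.

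Against shNR4A2 cells at 5% CO2 the interaction called 0 genes with edgeR (0%), with 392 at an unadjusted p under 0.05 and 2 with DESeq2, and the smallest adjusted p was 0.367. Without shNR4A2 + LPS replicate 2 edgeR called 8, and with the replicate number as a block it called 8. Against shNR4A3 cells it called 0 (0%), with 854 at an unadjusted p under 0.05 and 8 with DESeq2, and the smallest adjusted p, 0.0933, was that of MROCKI. Without shNR4A3 + LPS replicate 2 edgeR called 39, and with the replicate block 17. These interactions share the 6 shNT libraries at 5% CO2 with each other and with the comparison of CO2, so they are not independent. MYC fell by 2.73 ± 0.10 on the log2 scale in shNT and by 1.60 ± 0.17 in shNR4A2 cells at 5% CO2, a difference of 1.14 with an edgeR adjusted p of 0.855, and 0.0450 with DESeq2. MROCKI and this difference of MYC were named after their values were seen.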

How the data were processed

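RNA from 36 THP-1 libraries was sequenced after polyadenylate selection, and 6 libraries made the main comparison. The authors trimmed reads with Trimmomatic 0.36, aligned them with STAR 2.5.2b to GRCh38 and counted them per gene with featureCounts (Subread 1.5.2), and they deposited raw counts with no normalization. Which annotation release they counted against, with what strand setting, and in reads or in fragments, is not given in the sources used here.

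Genes were kept by filterByExpr (minimum count 10, minimum total 15) over all 36 libraries. The 6 libraries were scaled by TMM and tested with edgeR 4.0.16 (robust quasi-likelihood test, R 4.3.3), with Benjamini-Hochberg adjustment over 17720 genes and a threshold of 0.05. SEs were taken from the log2 fold change and the F statistic. Symbols came from GENCODE v44 for 98.1% of the IDs, and promoter sequences from RefSeq. The motif letters were settled after the shares of longer forms of the NF-kB and interferon motifs had been seen, so those shares are descriptions only. Interactions were fitted over 12 libraries each. Exact permutation of 3 against 3 libraries cannot give a two-sided p below 0.1, so no such test is reported. In counts simulated for the main comparison (17720 genes, 200 changed), 64% of 1.5-fold, 96% of 2-fold and all 4-fold and 8-fold changes were recovered, and 6.25% of the calls were false. In those simulated for the interaction with CO2 (17720 genes, 200 changed), 32%, 80%, 98% and 100% were recovered. Each fold rested on 50 changed genes. Recovery was not split by expression level, so these shares do not measure recovery for genes of few counts. The main comparison called 4052 genes, many more than the 200 changed here. Recovery and the share of false calls with that many genes changed were not tested.

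Named genes were, in each direction, 12 calls of largest log2 fold change (with a symbol, 1 count or more in each of the 6 libraries and no overlap), the 6 called with most LPS counts among those at 0 in all controls, the 6 of highest mean TPM among those higher and among those lower by 2-fold or more, up to 5 per interaction, and members of the gene lists. The rules on 0 counts in all controls and on TPM also required a symbol. The gene lists and members were chosen with earlier results of these data known. Alternatives were RLE scaling, library size only, DESeq2 1.42.0, other filters, 1 fit to all libraries, a stricter threshold, glmTreat, a replicate block, and leaving out each library. Some genes are not reported here.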

Additional observations from a re-analysis of the deposited data

Results flagged for a closer look

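The effect of LPS differed between 10% and 5% CO2 in shNT cells for 4 genes by the interaction test, each rising more at 10% CO2. The differences on the log2 scale were 1.17 for HIVEP2, 1.33 for PDGFA, 1.16 for CD44 and 0.91 for STARD4. HIVEP2 stayed called with each of the 12 libraries left out, and the other 3 each lost the call in 9 of the 12 fits.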

How the results depend on the processing

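The LPS response gave 4052 calls, and 2484 (1283 higher, 1201 lower) at an adjusted p under 0.01. glmTreat against a log2 fold change of 1 called 570 (476 higher, 94 lower). Library size only called 1218 higher and 4147 lower, 835 of the latter by 2-fold or more. Leaving out 1 library gave 3127 to 3601 calls (1514 to 1834 higher, 1613 to 1798 lower), 761 to 857 higher and 455 to 497 lower by 2-fold or more. The interaction with CO2 gave 53 genes with DESeq2, 2 with library size only, 108 with no filter and 1 to 37 without 1 library. The shNR4A2 interaction gave 2 with DESeq2, 19 with no filter and 0 to 8 without 1 library, and the shNR4A3 interaction 8, 85 and 0 to 39. Same-numbered libraries of the main comparison correlated by 0.104, -0.022 and 0.093 over all genes. Over the 9374 genes of mean CPM 10 or more they correlated by 0.634, 0.074 and 0.286. These were not over 0.1 in every pair, so the numbers were not taken as pairs in the main comparison. The interactions were fitted without a block likewise, though their same-numbered libraries were in part more alike. Between shNT and shNR4A2 cells of the same treatment each correlation was over 0.1, at 0.178 to 0.284 over all genes and 0.526 to 0.726 over the 9374. Between shNT and shNR4A3 cells they were 0.034 to 0.233 over all genes and 0.303 to 0.657 over the 9374. Between 5% and 10% CO2 they were -0.167 to 0.210 and -0.397 to 0.617. With the replicate block there were 5313 calls for LPS and 13, 8 and 17 for the interactions with CO2, shNR4A2 and shNR4A3. Of 151 named genes called for LPS, 39 lost the call with glmTreat, 3 with library size only (FOS, MYD88, RELA), 2 with DESeq2 (CLCF1, TNFSF10) and 2 with 1 fit to all libraries (FOS, NLRP3), and none reversed under any of these alternatives. CLCF1, FOSL2, NLRP3, TNFSF10, MYD88, RELA and FOS also lost it without single libraries, named beside their values. The cause of these changes was not tested. Depth limits genes of a few counts, such as LY96.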
